A study of Mus musculus with 12 samples.

Results

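The genes described here are 8 markers used for supporting cells, the non-sensory cells that surround and hold up hair cells in the inner ear: Sox2, Prox1, Fgfr3, Cdkn1b, S100a1, Sparcl1, Gjb2 and Gjb6. They were taken by gene symbol, with no threshold on their values, and all 8 were listed among 28342 genes in the cochlea and 24726 in the vestibule. Ribosomes carrying an HA tag were immunoprecipitated from mouse cochlea and vestibule at postnatal day 0 to 1, and the bound RNA was sequenced. All 4 groups were RiboTagHA/HA, so that Cre switched on the tagged ribosomal protein, and Cre was expressed under control of Gfi1, a gene that hair cells of the inner ear use. Heterozygotes were Gfi1Cre/+;RiboTagHA/HA and kept 1 unmodified Gfi1 copy; mutants were Gfi1Cre/Cre;RiboTagHA/HA and kept none. There were 3 libraries per genotype and organ, 12 in all, described by the submitters as independent biological triplicates.

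The Cre dose differed with genotype, and an influence of that dose on tagging and the loss of Gfi1 cannot be told apart. Cochlear and vestibular libraries were made with different kits, so organ and kit cannot be told apart and no level is compared between organs. RNA without immunoprecipitation was not analysed here, so the data do not measure how far a transcript was enriched or depleted by the pull-down. The markers are read here as transcripts of other cells that come with the hair cell fraction, or that hair cells themselves hold.

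Supporting cells and hair cells arise from a common pool of progenitors, and supporting cells keep several genes of that pool. SOX2 marks the progenitors and stays on in supporting cells; PROX1 is a homeodomain factor of pillar and Deiters cells; FGFR3 is a fibroblast growth factor receptor needed for normal pillar cell formation. CDKN1B (p27Kip1) keeps supporting cells out of the cell cycle, S100A1 is a calcium-binding protein, SPARCL1 is a secreted matrix protein, and GJB2 and GJB6 are the connexins that join cochlear supporting cells through gap junctions and whose loss causes deafness. GFI1 is a zinc finger repressor whose DNA recognition motif has AATC at its core.

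Sequences upstream of 3 members are shown because each belongs to a pair of genes close together on a chromosome that are described together below. They were read from RefSeq promoter sequences on GRCm38.p6, are printed 5′ to 3′ on the strand of the gene, and carry AATC or its reverse complement GATT in capitals. Gjb2 and Gjb6 lie on chromosome 14, both on the minus strand, with 18600 bases and 1 annotated protein-coding gene between them, and the 250 bases before each start hold no annotated exon. The S100a1 line gives the 42 bases between the divergent starts of S100a1 and S100a13 on chromosome 3, on the strand of S100a1.
Gjb2, chr14:57104703-57104952, minus strand: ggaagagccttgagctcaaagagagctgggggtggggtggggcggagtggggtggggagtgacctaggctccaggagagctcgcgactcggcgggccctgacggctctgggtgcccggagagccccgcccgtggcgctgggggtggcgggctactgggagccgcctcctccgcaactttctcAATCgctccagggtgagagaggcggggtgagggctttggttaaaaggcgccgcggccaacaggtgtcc
Gjb6, chr14:57133612-57133861, minus strand: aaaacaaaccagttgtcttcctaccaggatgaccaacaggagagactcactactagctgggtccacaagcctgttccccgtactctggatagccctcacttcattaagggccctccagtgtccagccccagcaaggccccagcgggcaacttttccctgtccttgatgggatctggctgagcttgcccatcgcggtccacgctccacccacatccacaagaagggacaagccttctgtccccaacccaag
S100a1 to S100a13, chr3:90514393-90514434, minus strand: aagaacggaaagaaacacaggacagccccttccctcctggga

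AATC on either strand occurred 1 time in the 250 bases before Gjb2, 0 times in those before Gjb6 and 0 times in the much shorter S100a1 stretch. The 250 bases before the RefSeq start of S100a1, which reach beyond the printed stretch on both sides, held it 1 time, as did those of Sox2 and of 1 of the Prox1 promoters; those of Fgfr3 and Cdkn1b held none. It was present in 69.0% of 32851 mouse promoters of 250 bases, so its presence or absence before a member is a description only. The longer motif TAAATCAC was found in 0.514% of those promoters and in none of the member promoters; 7 of the 8 members matched the promoter table.

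Gfi1 itself checked the labels. It stood at 165, 106 and 126 CPM (read counts scaled to the library total) in the cochlear heterozygotes and at 75.1, 64.3 and 69.1 CPM in the mutants, and at 534, 450 and 483 against 236, 198 and 208 CPM in the vestibule. The mutants were lower in both organs, by 0.90 (SE 0.16) and 1.19 (SE 0.13) on the log2(CPM + 1) scale (limma, Benjamini-Hochberg adjusted p = 0.00355 and 0.00234, n = 3 per group). Cochlear libraries ranged from 7531518 to 9363796 reads and vestibular ones from 18951026 to 29370267, and 1 read was worth 0.107 to 0.133 CPM and 0.0340 to 0.0528 CPM. Mitochondrially encoded transcripts summed to 6736 and 6982 CPM in both cochlear replicate 3 libraries against 22602 to 31593 CPM in the others. In the vestibule this sum was lower in the mutant of each same-numbered pair, at 7137, 8481 and 2678 CPM in heterozygotes and 2343, 5083 and 1244 CPM in mutants, with overlapping ranges. Of 7 tested mitochondrial genes there, 0 were called by limma, edgeR or DESeq2, 3 had an unadjusted p under 0.05, and 7 were lower with a replicate block (a fit that pairs same-numbered libraries); the part of this shift in the vestibular values below was not tested. All 8 members passed the filter of at least 1 CPM in at least 3 of 6 libraries in both organs. The fewest reads behind any member value were 47, for Fgfr3 in the vestibule. Hair cell transcripts were described by 10 markers, all of them present. Their sum ranged from 5531 to 6639 CPM for cochlear heterozygotes and from 9435 to 10582 CPM for vestibular ones. Without RNA from before the pull-down, their presence cannot check the labelled cell type. Markers of other cells were present too. For vestibular heterozygotes the macrophage sum ranged from 7243 to 9108 CPM and the erythroid sum from 2702 to 7579 CPM.

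S100a1 was lower in every cochlear mutant library, and the other members overlapped between genotypes there. For some of these the intervals allow changes nearly as large as that of S100a1, up to 0.65 for Fgfr3 and 0.68 for Gjb6. Of the 8 members, 1 passed the test in the cochlea, in the lower direction, where 4.41% of 17985 tested genes were called and 2.52% were called lower. In the vestibule 0 of 8 passed limma's test without a replicate block, where 3.5% of 15595 genes were called. At an unadjusted p under 0.05 the vestibular count was 3 of 8 (Sox2, Gjb2 and Gjb6), where 16.1% of all tested genes had one. By edgeR 0 of 8 were called, against 3.36% of genes, and by DESeq2 1 (Sox2), against 7.95%. With the replicate number as a block, 4 vestibular members passed: Sox2 and Prox1 were higher and Gjb2 and Gjb6 lower. That fit called 23.3% of vestibular and 8.52% of cochlear genes, and the 4 of 8 members are to be read against the former. The median change of the 8 members was 0.12 in the cochlea, against 0.05 over all tested genes, and 0.02 in the vestibule against -0.06.

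**Figure D1:**
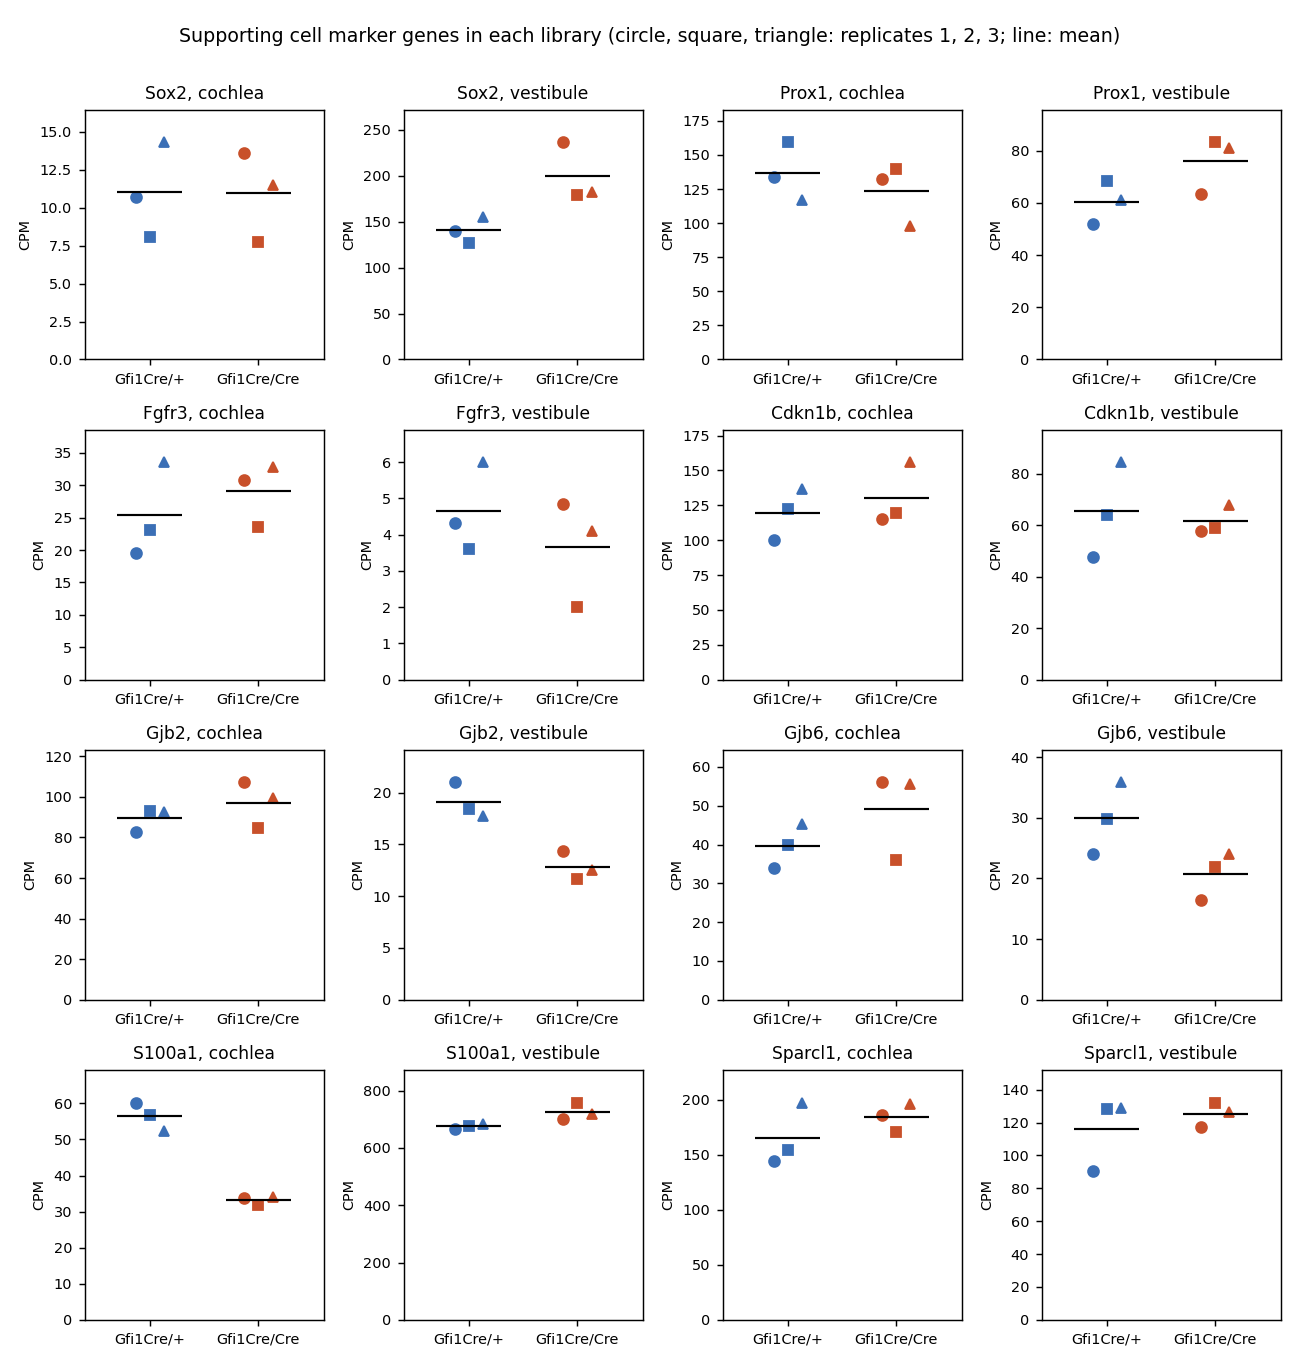
CPM of each supporting cell marker gene in every library, with the cochlea and vestibule in separate panels that each start at 0, heterozygotes in blue and mutants in orange, and the group mean as a line. Cochlear S100a1 separates the groups, at 52.4 to 60.2 CPM against 31.7 to 33.9 CPM, and vestibular Sox2, Gjb2, Gjb6 and S100a1 do so with smaller gaps or lower precision.

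Sox2 was at 10.7, 8.10 and 14.3 CPM in the cochlear heterozygotes and at 13.6, 7.74 and 11.5 CPM in the mutants. The ranges overlapped almost wholly, and the fitted change was -0.01 (SE 0.26, 95% interval -0.57 to 0.55, limma adjusted p = 0.998). In the vestibule Sox2 was at 140.0, 127 and 155 CPM in heterozygotes and at 236, 179 and 183 CPM in mutants. All 3 vestibular mutant libraries lay above all heterozygotes, and replicate 1 of the mutants was the highest. The vestibular means were 141 ± 14.2 and 199 ± 32.2 CPM (SD, n = 3), a change of 0.49 (SE 0.15, interval 0.15 to 0.83, limma adjusted p = 0.139). With the replicate block the adjusted p was 0.00174, and by DESeq2 the change was 0.54 with an adjusted p of 0.0327. Without the vestibular mutant replicate 1 library the change was 0.36 (limma adjusted p = 0.289).

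Prox1 was at 134, 159 and 117 CPM in the cochlear heterozygotes and at 133, 140.0 and 98.2 CPM in the mutants. The mutant library was the lower one in each of the 3 same-numbered pairs, but the ranges overlapped and the change was -0.15 (SE 0.16, limma adjusted p = 0.854; 0.457 with the block). In the vestibule Prox1 was at 52.0, 68.5 and 61.0 CPM in heterozygotes and at 63.4, 83.2 and 81.1 CPM in mutants. Here the mutant was the higher one in 3 of 3 pairs, while the groups as a whole overlapped. The vestibular change was 0.32 (SE 0.16, interval -0.05 to 0.69), with a limma adjusted p of 0.389 without and 0.0178 with the block. The antisense transcript Prox1os shares 1.59% of the exon bases of Prox1, and reads there cannot be assigned without a known strand setting.

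Fgfr3, the receptor of the set, had the lowest mean level per length in both organs, with a range that overlapped that of Sox2 in the cochlea. Its cochlear values were 19.6, 23.1 and 33.5 CPM in heterozygotes and 30.7, 23.5 and 32.9 CPM in mutants, and its vestibular values 4.33, 3.61 and 5.99 against 4.85, 2.0 and 4.10 CPM. The groups overlapped in both organs. The changes were 0.21 (SE 0.21, interval -0.24 to 0.65, limma adjusted p = 0.838) and -0.31 (SE 0.31, interval -1.03 to 0.40, limma adjusted p = 0.702). Changes of the size seen for S100a1 were thus inside the vestibular interval. An opposite-strand transcript, G630022F23Rik, covers 13.9% of the exon bases of Fgfr3 and was not among the genes listed in either organ. Reads there cannot be assigned without a known strand setting, and the share of Fgfr3 reads affected is not known.

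Cdkn1b was at 99.97, 122 and 136 CPM in the cochlear heterozygotes and at 115, 119.8 and 156 CPM in the mutants. In the vestibule it was at 47.8, 63.9 and 84.5 CPM against 57.6, 59.1 and 67.8 CPM. Replicate 3 was the highest library of every group, and the genotypes overlapped in both organs. The changes were 0.12 (SE 0.15, limma adjusted p = 0.893) and -0.05 (SE 0.20, limma adjusted p = 0.945).

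S100a1 was at 60.2, 56.7 and 52.4 CPM in the cochlear heterozygotes and at 33.7, 31.7 and 33.9 CPM in the mutants. The 3 mutant libraries lay close together and well below the lowest heterozygote; 1 of 8 members did not overlap in the cochlea, where 17.5% of tested genes did not. The means were 56.4 ± 3.89 and 33.1 ± 1.21 CPM (SD, n = 3), a change of -0.75 (SE 0.14, interval -1.04 to -0.46, limma adjusted p = 0.00448; 0.00014 with the block). The call was made under each of 17 alternatives, with changes from -0.83 to -0.70 and adjusted p from 6.46e-05 to 0.0292. Without both cochlear replicate 3 libraries it was -0.82 (limma adjusted p = 0.00626). In bulk samples such as these, fewer cells of a type and less RNA per cell cannot be told apart.

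In the vestibule S100a1 was at 666, 676 and 685 CPM in heterozygotes and at 701, 758 and 718 CPM in mutants. The mutants were all higher, by a small margin: the means were 675 ± 9.63 and 726 ± 29.4 CPM, and the change was 0.10 (SE 0.11, interval -0.16 to 0.36, limma adjusted p = 0.741). Groups that did not overlap were common in the vestibule, at 22.3% of tested genes, and 4 of 8 members were among them: Sox2 and S100a1 higher, Gjb2 and Gjb6 lower.

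Hair cell markers moved with cochlear S100a1. The hair cell list summed to 5531 to 6639 CPM in the cochlear heterozygotes and to 3563 to 4278 CPM in the mutants, and 7 of its 10 genes were called lower with a median change of -0.85. Per 1000 CPM of hair cell markers, S100a1 was at 8.0 to 10.3 CPM in the heterozygotes and 7.70 to 9.47 CPM in the mutants, so this ratio overlapped between genotypes. In the vestibule the ratio was 64.7 to 70.6 against 64.1 to 72.1 CPM, and 0 of the 10 hair cell markers were called by limma or edgeR (1 by DESeq2, 1 at an unadjusted p under 0.05, and 4 higher with the block). The largest part of the hair cell sum was Myo6 in the cochlea, with a heterozygote mean of 3234 and a mutant mean of 2337 CPM. In the vestibule it was Otof, at 4770 and 4582 CPM. Cochlear Myo6 changed by -0.47 (limma adjusted p = 0.188, and 0.00916 with the block). The ratio thus weighs these genes most and does not read the 10 markers evenly. The ratio was chosen after the values were seen, and the part of hair cell RNA in the S100a1 result was not tested. The neighbour S100a13, whose start lies 42 bases from that of S100a1 as shown above, was at 16.8, 14.6 and 11.6 CPM in the cochlear heterozygotes and at 7.12, 6.58 and 6.37 CPM in the mutants. S100a13 was lower by 0.98 on the log2 scale (SE 0.21, limma adjusted p = 0.0162), but did not pass when any of heterozygote replicates 1 and 2 and mutant replicate 2 was left out (adjusted p up to 0.104). In the vestibule S100a13 overlapped, at 135 ± 8.61 and 122 ± 15.5 CPM. The ratio of S100a1 to S100a13, also chosen after the values were seen, did not overlap in the cochlea. It was 3.59 to 4.50 in the cochlear heterozygotes and 4.74 to 5.33 in the mutants. The fitted fall was larger for S100a13, but its interval (-1.44 to -0.52) includes the S100a1 change of -0.75. Whether the falls differ was not tested. In the vestibule this ratio overlapped, at 4.70 to 5.46 against 5.11 to 6.76.

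Sparcl1 was at 145, 155 and 197 CPM in the cochlear heterozygotes and at 186, 170.3 and 196 CPM in the mutants. In the vestibule it was at 90.7, 128 and 129 CPM against 118, 132 and 127 CPM. The highest library of the cochlea was a heterozygote, and the lowest library of each organ was heterozygote replicate 1. The groups overlapped, with changes of 0.16 (SE 0.14, limma adjusted p = 0.784) and 0.13 (SE 0.16, limma adjusted p = 0.781).

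The connexins Gjb2 and Gjb6 had lower values in all vestibular mutant libraries, a difference that passed the test with the replicate block and not without it. In the cochlea both overlapped between genotypes. Vestibular Gjb2 was at 20.98, 18.4 and 17.8 CPM in heterozygotes and at 14.4, 11.6 and 12.5 CPM in mutants. Vestibular Gjb6 was at 24.1, 29.8 and 35.8 CPM against 16.5, 21.9 and 24.0 CPM. No mutant library reached a heterozygote for either gene, although for Gjb6 the highest mutant and the lowest heterozygote, at 24.0 and 24.1 CPM, all but met. The changes were -0.53 (SE 0.17, interval -0.93 to -0.14) and -0.50 (SE 0.21, interval -0.98 to -0.02). Their limma adjusted p was 0.165 and 0.285 without the block, and 0.0156 and 0.00871 with it. The lower values were seen in 3 of 3 same-numbered pairs for each gene.

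Cochlear Gjb2 was at 82.8, 92.9 and 92.6 CPM in heterozygotes and at 107, 84.5 and 99.5 CPM in mutants, and cochlear Gjb6 at 34.0, 39.8 and 45.3 against 56.0, 36 and 55.7 CPM. Mutant replicates 1 and 3 lay above all heterozygotes for both genes, and mutant replicate 2 did not. The changes were 0.11 (SE 0.13, limma adjusted p = 0.876) and 0.28 (SE 0.18, limma adjusted p = 0.653). The ratio of Gjb2 to Gjb6 overlapped between genotypes in both organs, at 2.04 to 2.43 against 1.79 to 2.35 in the cochlea and 0.496 to 0.870 against 0.521 to 0.875 in the vestibule.

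**Figure D2:**
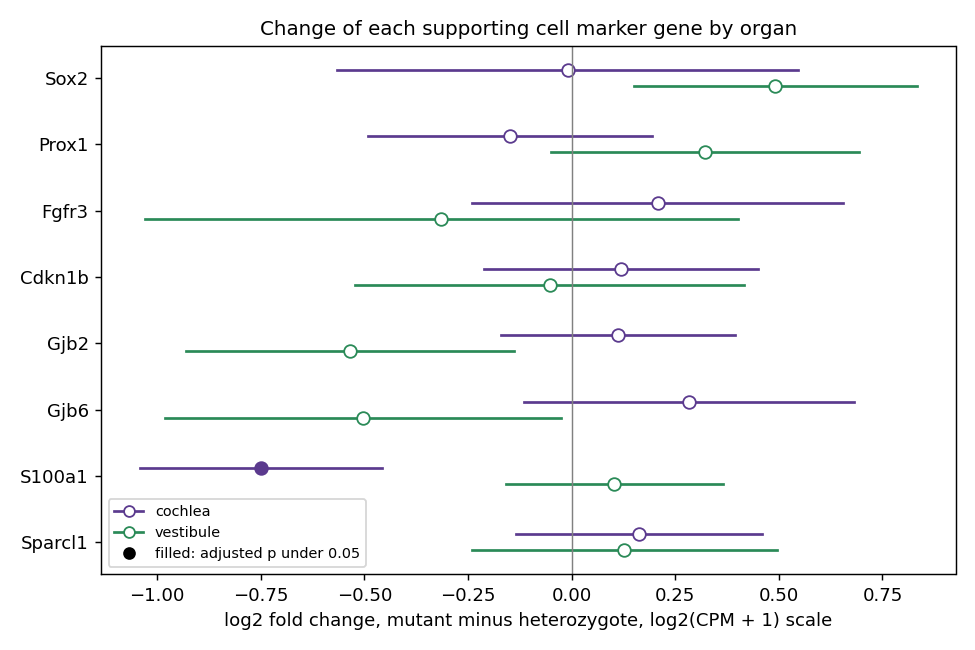
Log2 fold change of each supporting cell marker gene (mutant minus heterozygote; values are log2 of CPM + 1), with 95% intervals as lines, for the cochlea in purple and the vestibule in green; filled points have a limma adjusted p under 0.05. Only cochlear S100a1, at -0.75, is filled, and the vestibular Sox2, Gjb2 and Gjb6 intervals lie on one side of 0.

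The genotype difference was then compared between organs as an interaction term, the cochlear change minus the vestibular change. S100a1 differed, by -0.85 (SE 0.15, interval -1.18 to -0.52, limma adjusted p = 0.00512). It was 1 of 8 members called, where 3.14% of 14674 genes were called and 2.43% were called in the negative direction. The 10 hair cell markers all had a negative difference too, with a median of -0.90, and 3 were called (9 with the block). With the block 4 of 8 members were called, against 13.3% of all genes: S100a1 (adjusted p = 0.00011), Gjb2 (0.0165), Gjb6 (0.0155) and Prox1 (0.0191). The differences were 0.65 for Gjb2 (SE 0.20), 0.79 for Gjb6 (SE 0.30) and -0.47 for Prox1 (SE 0.24), with limma adjusted p of 0.120, 0.235 and 0.433 without the block. Sox2 differed by -0.50 (SE 0.30, limma adjusted p = 0.528, and 0.0862 with the block), so its changes in both organs were not shown to differ. For Fgfr3, Sparcl1 and Cdkn1b the differences were 0.52 (SE 0.39), 0.04 (SE 0.22) and 0.17 (SE 0.27), none of them called with or without the block. The median difference over all genes was 0.11 and that of the members 0.10.

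The order of the markers by length-scaled level, in CPM per kilobase of exon, was led by S100a1 in 3 of the 4 groups. In the cochlear heterozygotes the means were 81.3 for S100a1, 56.4 for Sparcl1, 37.2 for Gjb2 and 26.3 for Cdkn1b, with no overlap between neighbours in this order. Prox1 (16.3) overlapped Gjb6 (14.9), and Sox2 (5.36) overlapped Fgfr3 (3.55). In the cochlear mutants Sparcl1 (62.7) stood above S100a1 (47.8). In the vestibular heterozygotes S100a1 stood at 973 CPM per kilobase and Sox2 followed at 68.4, then Sparcl1 at 39.5. Cdkn1b (14.4) overlapped Gjb6 (11.2), Gjb2 (7.92) overlapped Prox1 (7.21), and Fgfr3 was the lowest at 0.649. S100a1 made up 58.3% to 63.7% of the summed CPM of the 8 members in those libraries, so a sum over the members mainly reads S100a1 there. The sum was 1046 to 1174 CPM in the vestibular heterozygotes and 1212 to 1247 CPM in the mutants; without S100a1 it was 380.0 to 490 and 489 to 511 CPM. In the cochlea the sum overlapped, at 586 to 689 against 614 to 684 CPM.

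The 8 markers did not follow each other closely across the 12 libraries once each organ's mean was removed. The highest Pearson r between members was 0.75, for Cdkn1b and Sparcl1, and Gjb2 and Gjb6 reached 0.57. The lowest were -0.68 for Gjb2 with Prox1 and -0.66 for Fgfr3 with Prox1. These are descriptions over libraries that share genotype groups, depth and kit within an organ. By the same measure, S100a1 was most like Msrb3 (r = 0.99, a methionine sulfoxide reductase linked to deafness) and Fam49a (0.98), whose own cochlear changes were -1.62 and -1.31 and vestibular changes 0.30 and 0.06. The genes most like Gjb2 were Fam129b (0.94) and Sox21 (0.92), a SOX factor that fell in the vestibule. For Gjb6 they were Hps3 (0.96) and Akap7 (0.95), for Sox2 Ankrd37 (0.95) and Fam216a (0.94), and for Prox1 the transcription cofactor Dach1 (0.93) and the importin Kpna1 (0.93). For Fgfr3 they were Adck5 (0.92) and Pck2 (0.90), for Sparcl1 Sf3b3 (0.95) and Fancm (0.95), and for Cdkn1b Plxnb1 (0.96) and Impdh2 (0.96).

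Genes related to the members were read from 8 further lists. Among 20 other genes used for supporting cells, 19 were tested in the cochlea; 1 was called higher and 1 lower, with a median of 0.01. Npy, a neuropeptide, rose from 4.29 ± 0.848 to 28.9 ± 11.4 CPM (2.44, SE 0.26, limma adjusted p = 7.96e-05), and Dkk3, a secreted Dickkopf family protein, fell from 147 ± 35.2 to 87.3 ± 6.75 CPM (-0.72, SE 0.16, limma adjusted p = 0.0221). Dkk3 did not pass when any of heterozygote replicate 1 and mutant replicates 1 and 2 was left out (adjusted p up to 0.119). In the vestibule 0 of 17 were called by limma and by edgeR, 2 by DESeq2 and 8 at an unadjusted p under 0.05; 14 of the 17 changes lay below 0 (median -0.42). The block gave 2 higher and 9 lower. The summed level of this list was 824 to 988 CPM in the vestibular heterozygotes and 678 to 751 CPM in the mutants, while the 8 members without S100a1 did not sum lower. In that sum Sox2, Prox1 and Sparcl1 had higher mutant means, Sox2 by the most (141 against 199 CPM). Gjb2, Gjb6, Fgfr3 and Cdkn1b had lower ones.

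For FGF signalling, the pathway of Fgfr3, 0 of 16 tested genes were called in the cochlea by limma, edgeR or DESeq2 (1 at an unadjusted p under 0.05, as for 12.1% of all cochlear genes, and 1 higher with the block). In the vestibule 0 of 17 were called by limma and edgeR, 1 by DESeq2 and 5 at an unadjusted p under 0.05. There 15 of the 17 changes were negative, with a median of -0.27, and the block called 1 higher and 7 lower. For Notch signalling, which keeps supporting cells from becoming hair cells, 0 of 8 were called in the cochlea by limma, edgeR or DESeq2 (1 at an unadjusted p under 0.05, and 1 lower with the block). In the vestibule 1 of 8 was lower: Heyl, a Notch target, fell from 77.6 ± 1.74 to 42.0 ± 2.33 CPM (-0.87, SE 0.12, limma adjusted p = 0.00658). The block gave 1 higher and 2 lower.

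**Figure D3:**
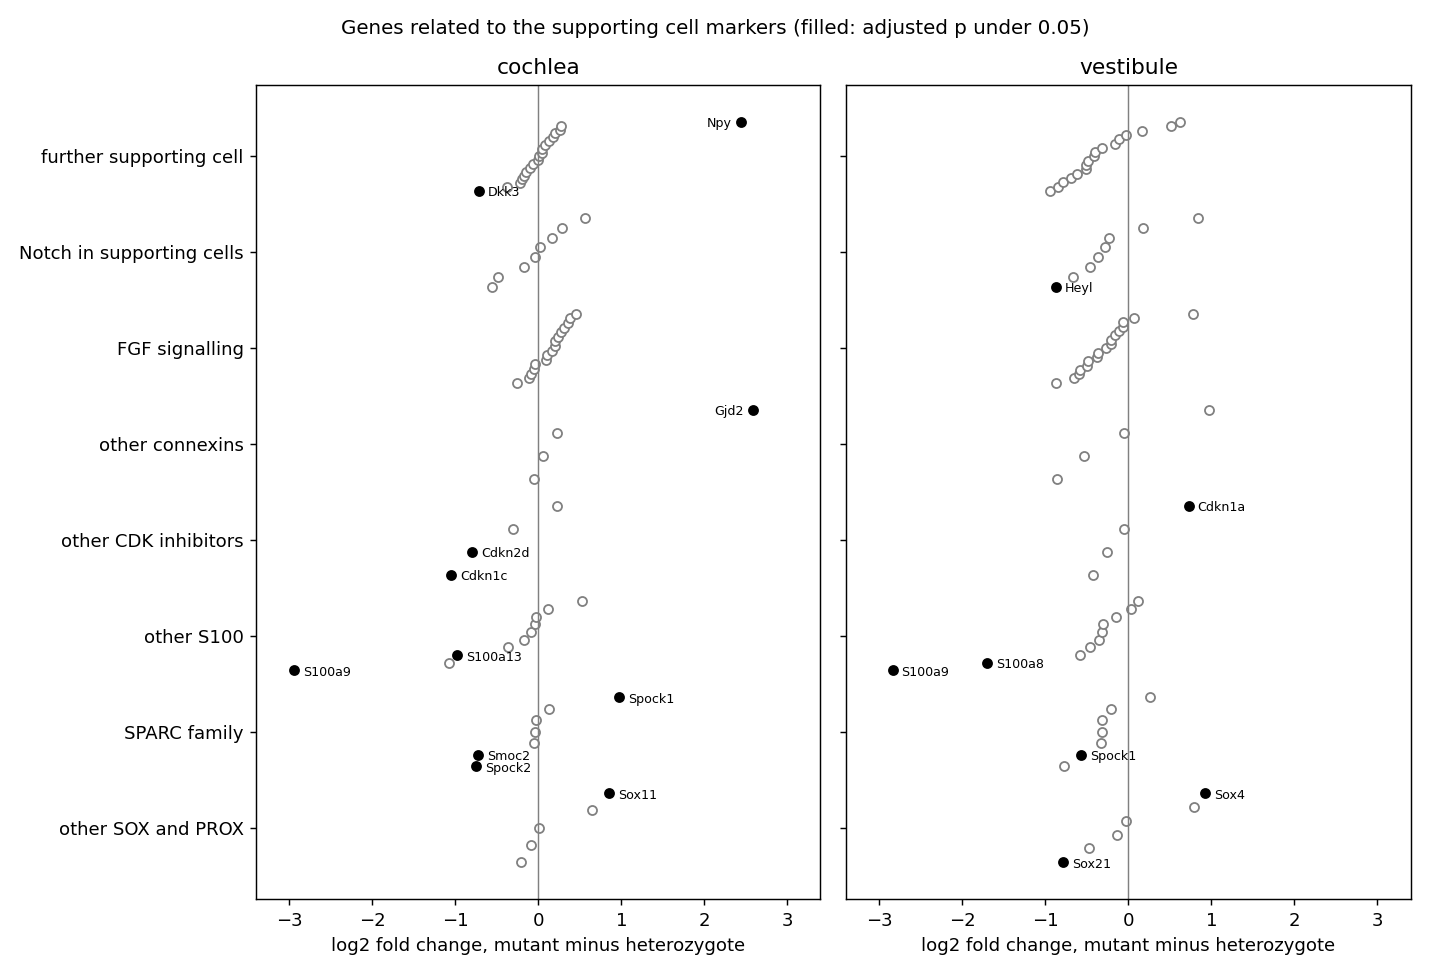
Log2 fold change, mutant minus heterozygote, of every tested gene of the 8 related lists in the cochlea and vestibule, sorted within each list; filled points are named and have a limma adjusted p under 0.05. Spock1 is filled on opposite sides of 0 in the 2 organs, and the FGF list has no filled point in either.

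Of the other connexins, 4 were tested in each organ. Gjd2, the main connexin of neuronal electrical synapses, rose in the cochlea, from 0.381, 1.59 and 0.961 CPM (the first being 3 reads) to 8.62, 17.0 and 7.76 CPM (2.59, SE 0.33, limma adjusted p = 0.000297). No other connexin was called by limma in either organ; in the vestibule 2 of 4 had an unadjusted p under 0.05, edgeR called 0 and DESeq2 1, and the block gave 1 higher and 2 lower. Of the CDK inhibitors related to Cdkn1b, Cdkn1c (p57) fell in the cochlea from 204 ± 73.3 to 94.2 ± 15.7 CPM (-1.05, limma adjusted p = 0.0187). Cdkn2d (p19Ink4d), which keeps hair cells postmitotic, fell there from 43.6 ± 7.80 to 24.9 ± 5.46 CPM (-0.79, limma adjusted p = 0.0290). Both calls were lost in some of the fits that left out 1 library and so had fewer samples. Over those fits the change ranged from -1.39 to -0.86 for Cdkn1c and from -0.90 to -0.61 for Cdkn2d. Cdkn1c did not pass when any of heterozygote replicate 2 and mutant replicates 1 and 2 was left out (adjusted p up to 0.116). The same held for Cdkn2d with heterozygote replicates 1 and 2 and mutant replicate 1 (up to 0.172), and for Cdkn2d with no filter on low values. In the vestibule Cdkn1a (p21) rose from 64.8 ± 2.27 to 108 ± 8.22 CPM (0.73, limma adjusted p = 0.0143), which did not pass when replicate 2 or 3 of either genotype was left out (up to 0.0928).

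Of the other S100 genes 2 of 10 were called lower in each organ. S100a9, a granulocyte protein, fell from 21.3 ± 5.50 to 2.13 ± 1.71 CPM in the cochlea (-2.95, limma adjusted p = 0.000195) and from 26.9 ± 0.832 to 2.89 ± 0.157 CPM in the vestibule (-2.84, 0.000194). Its partner S100a8 fell in the vestibule from 20.9 ± 1.82 to 5.76 ± 1.09 CPM (-1.70, limma adjusted p = 0.00318). Cochlear S100a8 was also lower in all mutants, at 9.01 ± 3.67 against 3.53 ± 0.729 CPM, but was not called without the block. Its change there was -1.08 (limma adjusted p = 0.0628, and 0.0116 with the block). Granulocyte markers moved with them: that list summed to 8.89 to 15.0 CPM in the cochlear heterozygotes against 0.129 to 1.16 CPM, and to 29.9 to 79.2 against 2.76 to 3.93 CPM in the vestibule. The part of granulocytes in these 2 genes was not tested.

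In the SPARC family of Sparcl1, 3 of 7 genes were called in the cochlea. Spock1, a matrix proteoglycan, rose from 239 ± 50.9 to 467 ± 80.6 CPM (0.98, limma adjusted p = 0.00362). Its relative Spock2 fell from 427 ± 44.6 to 253 ± 33.1 CPM (-0.75, 0.00448), and Smoc2, another SPARC-related matrix protein, fell from 121 ± 18.0 to 73.4 ± 14.6 CPM (-0.72, 0.0176). Smoc2 did not pass when any of heterozygote replicate 1 and mutant replicates 1 and 2 was left out (up to 0.101). In the vestibule 1 of 7 was called: Spock1 was lower, at 128 ± 5.45 against 190 ± 13.2 CPM (-0.57, limma adjusted p = 0.0344). That vestibular call was lost under 10 of 17 alternatives, among them leaving out any 1 of the 6 libraries (adjusted p up to 0.166). Among factors related to Sox2 and Prox1, Sox11 rose in the cochlea from 192 ± 8.76 to 351 ± 58.7 CPM (0.86, limma adjusted p = 0.00158). Sox4 rose in the vestibule from 112 ± 7.38 to 215 ± 16.2 CPM (0.93, 0.00455), and Sox21 fell there from 21.5 ± 1.88 to 12.0 ± 0.899 CPM (-0.79, 0.0425). The Sox21 call was lost under 12 of 17 alternatives, leaving out any 1 library included (up to 0.176).

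Markers of other cell types also differed between genotypes, mainly in the vestibule. Mesenchyme markers, all 10 present, summed to 2082 to 2855 CPM in the vestibular heterozygotes and 1183 to 1669 CPM in the mutants, and 2 of 9 tested were called lower (9 with the block). The 6 Schwann and satellite glia markers summed to 240 to 284 against 135 to 168 CPM and the 10 endothelial markers to 118 to 180 against 68.2 to 114 CPM. Markers of stria and nonsensory epithelium overlapped, at 673 to 1615 against 527 to 899 CPM, but their sum was lower in the mutant of each same-numbered pair. Most of that sum was Oc90 alone, at 604, 1204 and 1544 CPM in heterozygotes and 478, 851 and 812 CPM in mutants. Of 6 tested genes of that list, 0 were called by limma without the block. With the block 5 were lower, where it called 23.3% of all vestibular genes. The vestibular falls in Gjb2 and Gjb6 under the block went with these lower sums, and Sox2, Prox1 and S100a1 went the other way; the part of these cell types in the connexin values was not tested. In the cochlea the mesenchyme, glia, endothelium, stria and macrophage sums overlapped between genotypes. Of 10 macrophage markers there 2 were called higher, where 4.41% of all tested genes were called in either direction. These were Lyz2 (0.69, limma adjusted p = 0.00491) and Fcgr3 (0.71, 0.0342). The macrophage sum was 2176 to 2735 against 2662 to 3264 CPM in the cochlea. In the vestibule it overlapped as well, at 7243 to 9108 against 6894 to 8084 CPM, with 0 of 10 called by limma. The summed level of 6 neuron markers, most of it from Nefl and Nefm, was higher in the mutants of both organs, at 937 to 1091 against 1738 to 1782 CPM in the cochlea and 1301 to 1504 against 2241 to 2337 CPM in the vestibule. Of these genes 4 of 6 tested were called higher in the cochlea and 3 of 5 in the vestibule. Cochlear Nefl (0.51, limma adjusted p = 0.0502) and Prph (-0.42) were not called, nor were vestibular Stmn2 (-0.04) and Tubb3 (0.81).

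**Figure D4:**
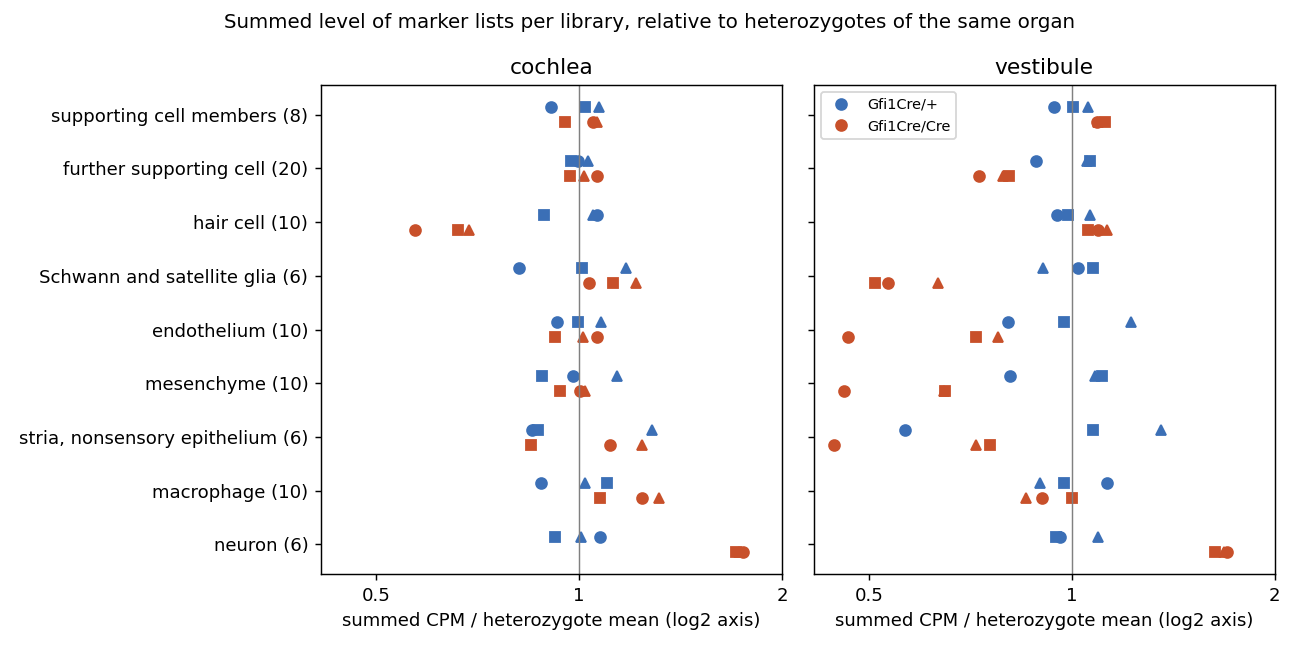
Summed CPM of each marker list per library, divided by the heterozygote mean of the same organ, on a log2 axis; heterozygotes are blue, mutants orange, and circle, square and triangle are replicates 1, 2 and 3. The 8 members stay close to 1 in the cochlea while the hair cell list lies lower in all mutants, at 3563 to 4278 against 5531 to 6639 CPM before scaling, and in the vestibule the mesenchyme, glia and endothelium lists lie lower.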

How the data were processed

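RNA bound to HA-tagged ribosomes was measured in 12 libraries. The authors deposited CPM values per gene; per the submitters' processing notes TopHat and GRCm38 were used, and no version, counting tool, strand setting or annotation is named; these are not given in the sources used here. All values (100%) were whole multiples of 1 read within 1e-06, so whole reads were recovered. Cochlear libraries used a NuGEN low-input kit and vestibular libraries a NEBNext directional kit, per the labels' protocols.

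Genes reaching 1 CPM in 3 or more of an organ's 6 libraries were compared on log2(CPM + 1) with limma 3.58.1 (R 4.3.3, trended variance), a scale that understates changes of low genes, without a replicate block and with Benjamini-Hochberg adjustment over all tested genes at 0.05. Organs were compared through an interaction term over the 12 libraries. The p-values measure the spread between these libraries. Alternatives were pseudocounts, filters, rescalings, edgeR 4.0.16 and DESeq2 1.42.0 on recovered reads, left-out libraries and the block; scripts were tested on simulated data. Same-numbered libraries deviated together from their group means (r = 0.226, 0.226 and 0.420 in the cochlea, 0.766, 0.508 and 0.599 in the vestibule, all above 0.1). The numbers were therefore taken as pairs, from the data and not from the labels. In the vestibule heterozygote 2 with mutant 3 (r = 0.318) and heterozygote 3 with mutant 2 (0.220) also passed 0.1. The rule thus did not single out same-numbered pairs there, although their r values were higher. Blocked values stand beside results they change.

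The members and gene lists were chosen with earlier results of these data known. Named were all members, Gfi1, the called genes of each related list (at most 4 per list and organ, by smallest p), and the 2 genes most like each member. Coordinates and exon lengths came from GENCODE M21 on GRCm38, promoters from RefSeq. Figures were drawn with matplotlib 3.10.9.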

Additional observations from a re-analysis of the deposited data

Results flagged for a closer look

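Among the 8 members and the genes of the related lists tested in both organs, 4 changed by genotype differently in the cochlea and the vestibule, by the interaction term in limma. They were 1 of 8 members, 1 of 4 other CDK inhibitors, and 1 positive and 1 negative of 7 SPARC family genes. In the other related lists 0 of 17, 8, 16, 4, 9 and 5 tested genes were called. Over all genes 3.14% of 14674 were called. The cochlear minus the vestibular change was -0.85 for S100a1 (SE 0.15, adjusted p = 0.00512). It was -1.03 for Cdkn1a (SE 0.20, adjusted p = 0.00864), which rose in the vestibule and in the cochlea had means of 22.1 ± 1.24 CPM (heterozygotes, SD, n = 3) and 17.9 ± 3.07 CPM (mutants). It was 1.54 for Spock1 (SE 0.23, adjusted p = 0.00141), higher in the cochlear and lower in the vestibular mutants, and -1.01 for Spock2 (SE 0.21, adjusted p = 0.0134), lower in the cochlear mutants. Vestibular Spock2 was at 684 ± 39.9 and 819 ± 87.5 CPM, with an adjusted p of 0.403 (0.0263 with the block). These calls held under each of the 24 alternatives run, with adjusted p up to 0.0211 for S100a1, 0.0384 for Cdkn1a, 0.00747 for Spock1 and 0.0440 for Spock2. Genes named only for their likeness to a member were not included. Organ and kit cannot be told apart.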

How the results depend on the processing

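Of 462 values of the members under alternatives, 435 kept their direction and their side of the threshold, 19 changed sign and 8 passed the threshold only there. Every sign change was of a value that did not pass. Cochlear Sox2 was 0.13 without both replicate 3 libraries, and the organ difference of Sparcl1 was -0.056 after median-of-ratios and -0.059 after TMM rescaling, -0.037 by edgeR and -0.046 by DESeq2. Leaving out 1 library gave -0.19 to 0.20 for cochlear Sox2, -0.25 to 0.0073 for cochlear Prox1, -0.015 to 0.22 for cochlear Cdkn1b, -0.040 to 0.21 for vestibular Sparcl1 and -0.26 to 0.15 for vestibular Cdkn1b. It gave -0.054 to 0.20 for the Sparcl1 and -0.028 to 0.38 for the Cdkn1b organ difference. Fgfr3 was not tested in the vestibule or between organs at a filter of 5 CPM.

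Pairing the libraries with the replicate block raised the members called in the vestibule from 0 to 4 and in the organ difference from 1 to 4, and changed no other call of a member; DESeq2 called 1 in the vestibule. Over all genes the block raised the cochlear calls from 794 to 1532 and the vestibular calls from 546 to 3634. Vestibular calls were 358 with no filter, 1234 by DESeq2 and 524 by edgeR on recovered reads, which called 813 in the cochlea. With 1 library left out, and so fewer samples, the cochlear calls were 530 to 777 and the vestibular calls 216 to 510. Other causes were not tested. Fgfr3, with the fewest reads of the members, had the largest standard error in the vestibule (0.31).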
